A study of Mus musculus with 4 samples.

Results

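The Igf2r and Airn cluster is a group of 6 neighbouring genes on mouse chromosome 17, Plg, Slc22a3, Slc22a2, Igf2r, Airn and Mas1, listed here in the order of their start positions. Their rows were picked by symbol, as those on that chromosome that carry one of these names. The older name Air was also looked for and names no row. They are 6 of the 22691 genes in the deposited table, and all 6 had a value in both genotypes. Trimethylation of histone H3 at lysine 27 (H3K27me3) had been measured by chromatin immunoprecipitation and sequencing (ChIP-seq) in mouse embryonic fibroblasts of strain C57BL6/J, taken from female fetuses at embryonic stage E13.5. One genotype was Smchd1 +/+ (WT) and the other Smchd1 MD1/MD1 (MD1), which the series' design calls deficient for SmcHD1. Each genotype had 1 ChIP library, made with the mouse monoclonal antibody CMA323, and 1 input library without antibody. The number of fetuses behind a library is not given in the sources used here. The series' title names the epigenetic states behind the maintenance of X inactivation as its question, and these 6 autosomal genes show the same mark at an imprinted locus away from the X.

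Imprinted genes are expressed from the allele of 1 parent. Igf2r, which encodes the receptor that carries insulin-like growth factor 2 and mannose-6-phosphate-tagged enzymes to lysosomes, is expressed mainly from the maternal allele in most mouse tissues. Airn is a long noncoding RNA expressed from the paternal allele, starts inside Igf2r on the opposite strand, and is needed to silence Igf2r in cis. In placenta it also silences Slc22a2 and Slc22a3, which lie farther away, and there the silencing involves repressive histone marks. H3K27me3 is laid down by Polycomb repressive complex 2 over genes that are kept silent, and SmcHD1, a chromatin protein best known from the inactive X, is also known to act on some imprinted clusters. The deposited table gives 1 value per gene and does not separate the parental alleles. A value therefore averages both alleles and all cells, and a mark on 1 allele, on part of the cells, or thinly on both cannot be told apart.

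The promoters of 5 of the 6 genes were found in a RefSeq table of sequences from 250 bases before to 50 bases after the start, on build GRCm38.p6; Plg had no entry. The windows of the silenced target, of the silencing RNA and of a distant target are shown because Slc22a3 stood high in the mark and Igf2r and Airn near the autosomal median. Capitals mark each CG dinucleotide, the letters CG, which read the same on both strands. The sequences run 5′ to 3′ on the gene's own strand, at chr17:12769657-12769956 (minus) for Igf2r, chr17:12741061-12741360 (plus) for Airn and chr17:12507655-12507954 (minus) for Slc22a3. These positions are on GRCm38.p6, whereas the values below are for the gene intervals of the table on mm9, so the 2 sets of positions are not comparable, and no value was measured over a promoter alone.
Igf2r: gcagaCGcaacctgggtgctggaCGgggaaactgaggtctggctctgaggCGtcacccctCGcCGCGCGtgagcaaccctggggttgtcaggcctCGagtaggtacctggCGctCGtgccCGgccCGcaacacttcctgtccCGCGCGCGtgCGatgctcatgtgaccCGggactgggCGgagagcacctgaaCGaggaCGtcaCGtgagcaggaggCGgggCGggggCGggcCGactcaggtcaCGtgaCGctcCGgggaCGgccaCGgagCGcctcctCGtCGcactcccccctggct
Airn: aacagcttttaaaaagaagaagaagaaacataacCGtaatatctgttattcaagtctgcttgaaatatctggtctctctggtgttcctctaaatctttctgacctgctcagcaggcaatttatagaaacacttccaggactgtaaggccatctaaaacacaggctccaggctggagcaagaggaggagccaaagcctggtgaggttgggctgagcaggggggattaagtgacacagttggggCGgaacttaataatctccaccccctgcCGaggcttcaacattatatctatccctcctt
Slc22a3: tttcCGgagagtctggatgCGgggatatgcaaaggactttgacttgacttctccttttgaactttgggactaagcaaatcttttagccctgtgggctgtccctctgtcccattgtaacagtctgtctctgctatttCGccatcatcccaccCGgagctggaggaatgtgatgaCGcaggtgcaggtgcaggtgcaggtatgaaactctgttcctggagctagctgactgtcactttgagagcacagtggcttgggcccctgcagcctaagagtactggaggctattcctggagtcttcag
The Igf2r window held 34 CG and 92.3% of the 32851 windows in the table held fewer. The Airn window held 3, the Slc22a3 window 5, the Slc22a2 window 8 and the Mas1 window 2, against a median of 7 over all windows (quartiles 3 and 20). At least 1 CG was found in 94.6% of windows. Igf2r thus had the CG-rich window among the 5, with an observed over expected CG ratio of 0.91 against 0.13 to 0.39 in the other 4. CG farther than 50 bases after a start were not counted, so a window with few CG does not describe the sequence beyond it.

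Both genotypes showed the same split of the cluster: H3K27me3 was high over Plg, Slc22a3, Slc22a2 and Mas1 and near the autosomal median over Igf2r and Airn. The values were read as log2 enrichments from their range and form, since the scale is not stated in the sources used here. As ratios of a ChIP to an input they would already allow for gene length, and levels of different genes are set side by side on that reading. Over autosomal genes the WT median was -0.78 (quartiles -2.13 and 0.49) and the MD1 median -0.90 (quartiles -2.96 and 0.49). The 4 marked genes stood above the upper quartile in each genotype. The lowest of the 4 exceeded the higher of Igf2r and Airn by 1.61 in WT and by 1.60 in MD1.

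**Figure D1:**
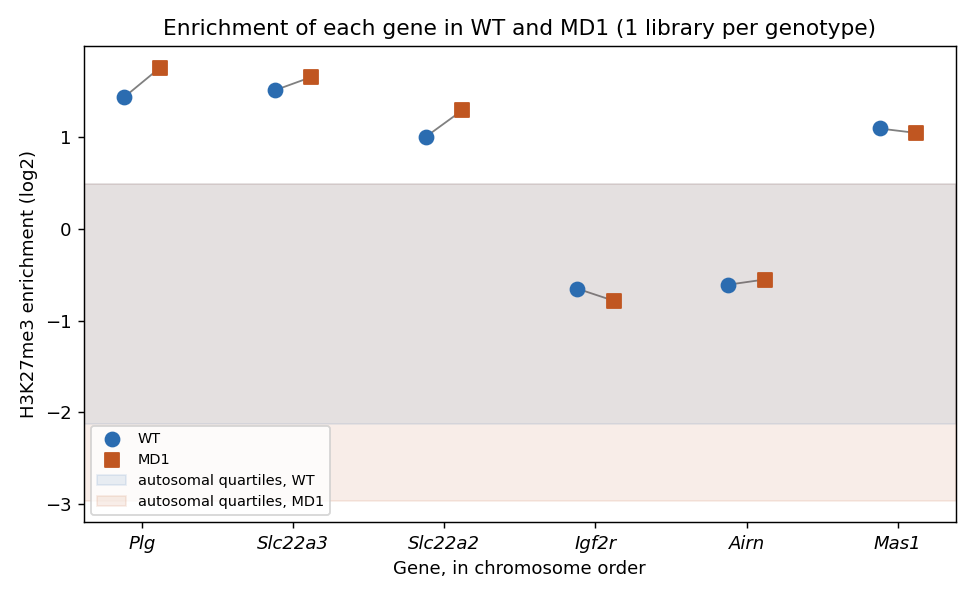
H3K27me3 enrichment (log2, y axis) of each of the 6 genes in chromosome order (x axis), with a circle for the WT library, a square for the MD1 library and shaded bands for the quartiles of autosomal genes in each genotype. There is 1 library per genotype and so no error bar; Plg, Slc22a3, Slc22a2 and Mas1 lie at 1.01 or above in both, Igf2r and Airn between -0.78 and -0.55.

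The imprinted receptor gene Igf2r (mm9, chromosome 17, 12875272 to 12962572, minus strand) stood at -0.65 in WT and -0.78 in MD1. These levels were at percentiles 52.1 and 51.7 of the 19836 autosomal genes with values in both genotypes. On a linear scale the enrichment was 0.636 and 0.581, and the log2 values differed by -0.13 (MD1 minus WT). Igf2r thus had the lowest value of the 6 genes in each genotype.

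Airn (mm9, chromosome 17, 12934177 to 13052750, plus strand), the noncoding RNA, stood at -0.61 in WT and -0.55 in MD1, percentiles 52.9 and 55.8. Its difference was 0.056, close to no difference. Airn exceeded Igf2r by 0.044 in WT and by 0.23 in MD1. With 1 library per genotype neither gap can be set against a replicate error, so the order of the pair is not settled. The intervals of Igf2r and Airn overlap by 28.4 kb, which is 32.5% of Igf2r and 23.9% of Airn. ChIP reads carry no strand, so reads in the shared stretch cannot be assigned to either gene. How they were counted is not given in the sources used here, and the values of the pair may not be independent.

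Slc22a3 (mm9, chromosome 17, 12612840 to 12700570, minus strand) encodes an organic cation transporter of low affinity and broad distribution. It had the highest WT value of the 6, 1.51, and stood at 1.65 in MD1, percentiles 92.3 and 92.5. The difference was 0.14. Slc22a3 exceeded Igf2r by 2.16 in WT and by 2.44 in MD1, a 4.48-fold and a 5.42-fold higher linear enrichment. The uncharacterised gene C030013G03Rik lies wholly inside the Slc22a3 interval and covers 14.5% of it. Its values were 1.37 and 1.68, near those of its host.

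Slc22a2 (mm9, chromosome 17, 12777055 to 12821354, plus strand), an organic cation transporter gene used mainly in kidney, stood at 1.01 in WT and 1.29 in MD1. These were percentiles 84.8 and 88.2, and the difference was 0.29. No listed gene overlaps it. Slc22a3 and Slc22a2 are paralogs, and the handling of reads that map to more than 1 place is not given in the sources used here.

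The genes at the outer ends of the cluster were marked as well. Plg (mm9, chromosome 17, 12571475 to 12612250, plus strand) encodes plasminogen, the liver-made precursor of the clot-dissolving protease plasmin. It stood at 1.43 in WT and 1.76 in MD1, percentiles 91.3 and 93.6, and its difference of 0.33 was the largest of the 6. Mas1 (mm9, chromosome 17, 13033871 to 13061009, minus strand), encoding a G protein-coupled receptor for angiotensin-(1-7), stood at 1.09 and 1.05, percentiles 86.3 and 84.4, a difference of -0.048. Of the Mas1 interval, 69.6% lies inside Airn. Mas1 exceeded Airn by 1.70 in WT and 1.60 in MD1, although the shared stretch makes up 15.9% of the Airn interval. A further 60.1% of Airn is covered by no other listed gene.

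**Figure D2:**
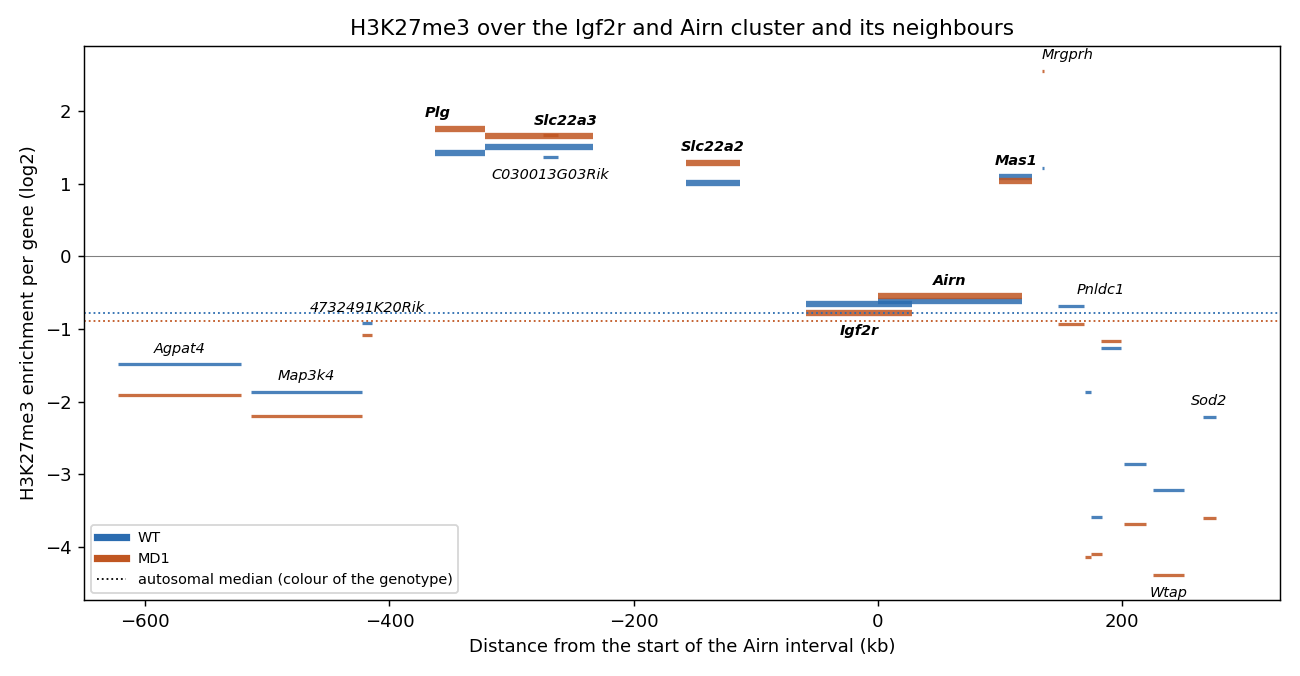
H3K27me3 enrichment per gene (log2, y axis) against distance from the start of the Airn interval in kb (x axis), each bar spanning a listed gene in WT (blue) or MD1 (orange), with thick bars for the 6 cluster genes, thin bars for other genes and dotted lines for the autosomal medians. Plg, Slc22a3 and Slc22a2 are high, Igf2r and Airn lie near the medians, Mas1 is high again, and Map3k4 on the left and Wtap and Sod2 on the right are low.

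Along the chromosome the mark was higher from Plg to Slc22a2 than at 4732491K20Rik and at Igf2r in both libraries. From 4732491K20Rik, the nearest listed gene before the cluster at -0.92 in WT and -1.08 in MD1, the value was higher by 2.36 and 2.84 at Plg. Plg, Slc22a3, C030013G03Rik and Slc22a2 ran from 1.01 to 1.51 in the WT library and from 1.29 to 1.76 in the MD1 library. From Slc22a2 to Igf2r the value was lower by 1.66 in WT and by 2.08 in MD1, which is 3.16-fold and 4.22-fold. After Mas1, the short receptor gene Mrgprh was at 1.22 in WT and 2.55 in MD1, above Mas1 mainly in the MD1 library, and Pnldc1, which encodes an exonuclease that trims small RNAs of the germline, stood at -0.68 and -0.93.

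None of the 6 genes differed 2-fold between the genotypes in either direction. The same limit was passed by 20.4% of autosomal genes toward lower and by 1.61% toward higher MD1 values, the background for a count of 0 of 6 each way. The 6 differences, MD1 minus WT, ran from -0.13 to 0.33, with 4 positive (Plg, Slc22a3, Slc22a2 and Airn) and 2 negative (Igf2r and Mas1). Their median was 0.10, against an autosomal median of -0.27. An absolute difference no larger than 0.33 was found in 45.1% of the 9918 autosomal genes in the third and longest length quartiles, the quartiles that hold the 6 genes. Differences as small as these were therefore common among genes of like length. That share ignores direction. With sign, the 6 differences stood from percentile 59.7 (Igf2r) to 88.0 (Plg) of autosomal genes, before any allowance for level.

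**Figure D3:**
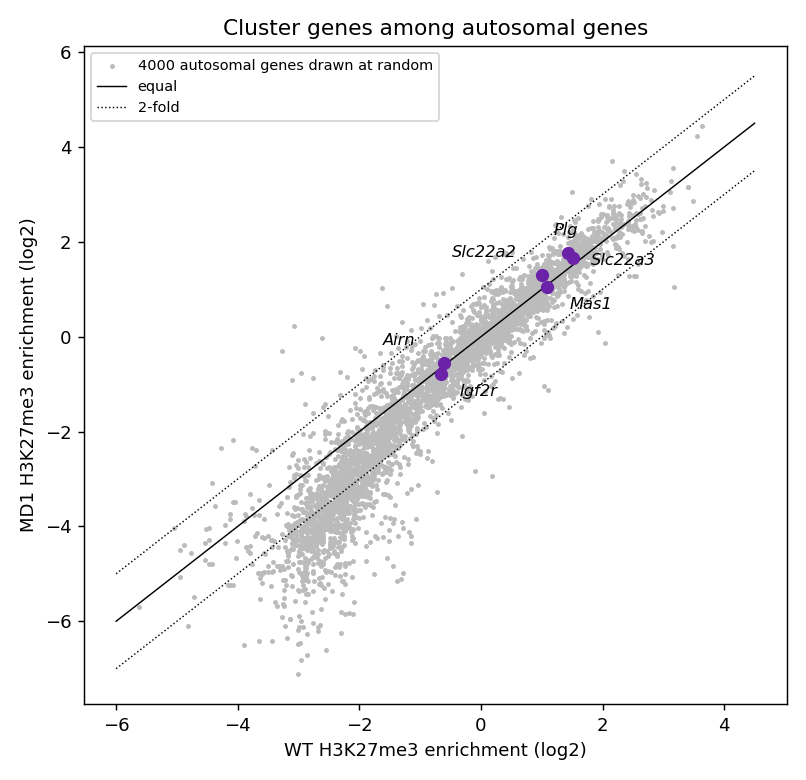
MD1 against WT enrichment (both log2) for the 6 cluster genes (purple) and 4000 autosomal genes drawn at random (grey), with the line of equal values and the 2-fold limits dotted. The 6 genes lie close to the line of equality, Igf2r and Airn in the middle of the cloud and the other 4 in its upper part.

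A regression of the MD1 on the WT values of autosomal genes had a slope of 1.25, so a gene's level bears on its difference. Each gene was therefore also set against the 500 autosomal genes nearest to it in mean level within its length quartile. Relative to their median, the differences were 0.20 at Plg, 0.031 at Slc22a3, 0.21 at Slc22a2, 0.037 at Igf2r, 0.22 at Airn and -0.12 at Mas1. The SD of the difference among those genes was 0.20 for Slc22a3 and 0.25 to 0.31 for the other 5, so each of the 6 lay within 1 SD of the median of genes of its own level and length. None of the 6 passed the 2-fold limit by this measure either, which 3.41% of autosomal genes passed as lower and 3.16% as higher. The sign of Igf2r turned from -0.13 to 0.037 in this comparison and to 0.14 after centring on the autosomal median. That of Mas1 turned to 0.22 after the centring alone. The direction of these small differences is thus not settled for either gene.

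Plg, Slc22a3, C030013G03Rik and Slc22a2 all had a higher value in the MD1 library, by 0.14 to 0.33. Of the 3030 autosomal genes with a WT value of at least 1, 57.9% were higher in MD1, with a median difference of 0.056. Neighbouring genes are not independent, and 1 of the 4 lies inside another. Among autosomal genes, 42 of 4948 in the same length quartile lay within 0.1 of Igf2r in the plane of WT and MD1 values, and the nearest outside the locus were Srgap1 (-0.64 and -0.77), Rabgap1l (-0.63 and -0.79) and Plcb4 (-0.66 and -0.76). For Airn the number was 38, and the nearest were Vwa8 (-0.62 and -0.53), Tesk2 (-0.61 and -0.52) and Slc27a6 (-0.58 and -0.53). This likeness rests on only 1 value per genotype.

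Genes after Mas1 gave differences over a wider range than the cluster, -2.27 to 1.39, though this contrast could not be tested. The 2-fold limit was passed as lower by 20.4% and as higher by 1.61% of autosomal genes. Of 34 other chromosome 17 genes within 2 Mb, 29 had both values. Of these, 3 were past the 2-fold limit with lower and 3 with higher MD1 values, with a median difference of -0.23. The lower ones lay just beyond Mas1 and had little mark in WT. They were Mrpl18, encoding a protein of the mitochondrial ribosome (-1.87 to -4.14), Wtap, encoding a subunit of the RNA adenosine methyltransferase complex (-3.22 to -4.39), and the mitochondrial superoxide dismutase gene Sod2 (-2.21 to -3.60). Relative to genes of like level and length these differences were -1.16, 0.37 and -0.35, so that of Wtap turned sign and that of Sod2 was within the 2-fold limit. The SD among the genes matched to Mrpl18 was 1.11, about the size of its difference. The higher ones were Mrgprh (1.22 to 2.55), the sperm kinase gene Smok2b (-0.89 to 0.35) and Thbs2, encoding the matrix protein thrombospondin 2 (-2.15 to -0.76). Relative to genes of like level and length they differed by 1.22, 1.31 and 1.67, all still past the limit, with matched SDs of 0.53, 0.80 and 0.42. Smok2b has close copies nearby, and Mrgprh is only 1809 bp long. The 7 genes before Plg had differences of -0.44 to -0.12, all negative, whereas Plg, Slc22a3 and Slc22a2 had positive ones. A positive difference was found in 31.0% of all autosomal genes. Among those with a WT value of at least 1, as Plg, Slc22a3 and Slc22a2 had, the share was 57.9%. The 7 genes before Plg had a lower WT median, 0.27, so the contrast in sign is also one of level. Relative to genes of like level and length, the median of those 7 genes was -0.056. Agpat4 (0.030) and Map3k4 (0.26) were then positive and the rest of the 7 negative. Among the 26 genes after Mas1, 5 lacked a value in one or both genotypes: Gpr31b, Tcp10b, Gm11166 and Unc93a in both, and Tcp10c in MD1.

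**Figure D4:**
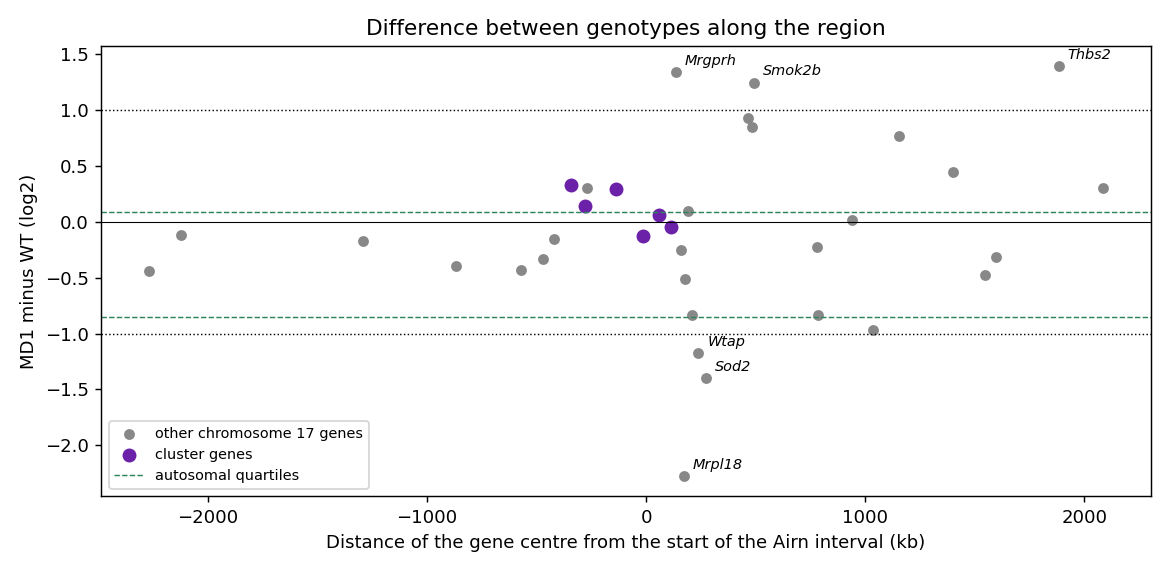
Difference MD1 minus WT (log2, y axis) against the distance of each gene's centre from the start of the Airn interval in kb (x axis) for the 6 cluster genes (purple) and the other chromosome 17 genes within 2 Mb (grey), with dotted 2-fold limits and dashed autosomal quartiles. The 6 lie between -0.13 and 0.33, and the 6 genes past the limits, all to the right of Airn, are named.

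The imprinted domain on chromosome 7 that is silenced in cis by the noncoding RNA Kcnq1ot1 was set beside the cluster. Kcnq1ot1, whose interval overlaps that of Kcnq1, stood at -0.47 in WT and -0.41 in MD1, against -0.61 and -0.55 for Airn. Both lay within the autosomal quartiles, and 38 autosomal genes of Airn's length quartile lay within 0.1 of Airn, nearer than Kcnq1ot1. The transporter gene Slc22a18 stood at 1.74 and 1.87. Of 12 genes of that domain with values, 2 passed the 2-fold limit as lower in MD1 and 1 as higher, and the median difference was -0.058. The shares over all autosomal genes were 20.4% lower and 1.61% higher. The 3 largest differences of the domain were at the tetraspanin gene Cd81 (-2.59), the cell cycle inhibitor gene Cdkn1c (1.04) and the lipid-binding protein gene Osbpl5 (-1.01). Relative to genes of like level and length they were -1.16, 0.90 and -0.16, so only that of Cd81 stayed past the limit. No test of the difference between the domains was possible.

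Plg and the transporter genes were also set beside other genes of their kind. The 25 liver secreted genes had a WT median of 0.90 and an MD1 median of 0.89, and Plg exceeded both. None of the 25 was past the 2-fold limit, and the median difference was 0.0038. The largest differences were at the coagulation factor gene F12 (0.75), the fibrinogen chain gene Fga (-0.66) and the apolipoprotein gene Apoa1 (0.61). The 23 other Slc22 genes had medians of 0.21 and 0.16. One, Slc22a17 (-0.93 to 0.51), was at least 2-fold higher, and the next largest differences were at Slc22a15 (-0.51) and Slc22a4 (-0.49). Slc22a3 and Slc22a2 stood above the median of these paralogs in both genotypes. In WT, 6 of the 23 stood at 1 or above, against 15.3% of autosomal genes. Slc22a12 (2.12) and Slc22a18 (1.74) stood above Slc22a3 in WT. Beside the counts of both lists, the shares of autosomal genes past the 2-fold limit were 20.4% lower and 1.61% higher.

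The cell type could be checked only through the mark, since expression was not measured. The 18 fibroblast genes, among them Col1a1, Col1a2 and Vim, had a median of -2.86 in WT and -3.77 in MD1, with none at 1 or above in WT. Only 15.3% of autosomal genes reached that level in WT, so its absence from a list this short says little. The 6 genes of other cell types had medians of 1.02 and 1.06, against autosomal medians of -0.78 and -0.90. The levels varied within both lists: the fibroblast gene Lum stood at -0.83 and -0.15, and of the other cell types the endothelial gene Pecam1 stood at 0.070 and 0.56, the leukocyte gene Ptprc at -0.071 and -0.25, and the neuronal gene Neurod1 at 2.69 and 2.34. Across 14749 autosomal genes with a promoter window, the number of CG and the WT enrichment correlated with Spearman's rho = -0.41, and with rho = -0.42 in MD1. This is a description across genes, which share libraries and base composition. Genes with at most 10 CG had a median WT enrichment of 0.17 (quartiles -0.67 and 0.91), and those with at least 25 a median of -1.91 (quartiles -2.53 and -0.58). Slc22a3, Slc22a2 and Mas1 lay above the upper quartile of the CG-poor genes. Airn, at -0.61 in WT, lay just above their lower quartile, and Igf2r, at -0.65, just below the upper quartile of the CG-rich genes.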

How the data were processed

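The authors deposited 1 value per gene and genotype, an enrichment per the file's name, in columns named for the genotypes. That these deposited values are on a log2 scale is no statement of the authors and was read from the values, which lie between -7.41 and 4.45. The genome build is mm9, per the submitters' processing notes. No source used here names the aligner, the counting of reads or the filters, and the depth is unknown. Nearly all values (99.98% for WT and 99.95% for MD1, tolerance 1e-12) have the form of a constant and a ratio of whole numbers up to 20000, as a ChIP count over an input count has. Only reduced fractions can be had from this, such as 2718 over 983 (WT) and 2564 over 797 (MD1) for Slc22a3, so counting error is not given. Starts in the table are 0-based, as end minus start matched the RefSeq length of 9511 of 21379 symbols, and are printed 1-based.

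A 2-fold limit stood in for a test, which 1 library per group does not allow. Level matching used the 500 nearest autosomal genes in a length quartile and was checked on simulated data, where matching on mean level returned planted shifts somewhat too small. Rows of the cluster were picked by symbol. The cluster itself, the lists and the rule for named genes were chosen with earlier results of these data known. That rule took the cluster's genes and those between them, flanking genes past the limit or next to the cluster, the 3 largest differences of each list, and the 3 genes most like Igf2r and Airn. Further examples were chosen after seeing values. A gene of the region is not reported here and was left out of the lists. Protein identity of the transporters was not analysed here. Python 3.11.15, pandas 2.3.3, numpy 2.4.6 and scipy 1.17.1 were used.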

Additional observations from a re-analysis of the deposited data

How the results depend on the processing

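No paired analysis was possible because each genotype had 1 ChIP library. No cluster gene passed the 2-fold limit after centring on the autosomal median or after matching on mean level or on the WT value. None passed it with pseudocounts of 0.01 and 1 on the linear ratio, or when overlapping or low genes were left out. None passed a 1.5-fold or 3-fold limit on the uncentred differences. Pseudocounts shrink differences, and a stricter limit or fewer genes cannot add a call, so those settings could not change the count. The 1.5-fold limit was not combined with centring, after which the difference of Plg, 0.60, would pass it as higher. Differences and medians are called moved here when they shift by over 0.1 or change sign, a rule not meant for counts. The largest absolute difference in the cluster, 0.33, became 0.60 after centring and 0.22 after level matching. The cluster's median became 0.37 after centring and 0.31 without overlapping genes. Centring adds 0.27 to every difference.

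For the flanking genes, the median of -0.23 became -0.065 with a pseudocount of 1, 0.044 after centring, 0.074 after level matching, 0.075 after matching on the WT value and -0.12 without low genes. Their 3 lower calls became 0 with a pseudocount of 1 or without low genes, 2 after centring and 1 after either matching. Within 5 Mb, a larger set of genes, 13 were lower. The size of that set is not given here, so the counts of 13 and 3 are not comparable. Their 3 higher calls became 1 with a pseudocount of 1, 6 after centring, 5 after level matching and 4 after matching on the WT value. In the Kcnq1 domain the 2 lower calls became 1 with a pseudocount of 0.01, after centring and after either matching, and 0 with a pseudocount of 1. Its 1 higher call became 0 with a pseudocount of 1 and after level matching. Its median became 0.21 after centring, 0.027 after level matching and 0.061 after matching on the WT value. The Slc22 median of 0.079 became 0.35 after centring and 0.19 after matching on the WT value, and its higher calls 0 with a pseudocount of 1 and 2 after matching on the WT value. The liver median became 0.28 after centring, with 1 higher call, and -0.099 after level matching. After level matching, 3.41% of autosomal genes were past the 2-fold limit as lower and 3.16% as higher. The autosomal shares under the other settings are not given here, so the counts under them have no background. Centring shifts all genes alike and adds higher calls across the genome as well. The cause of these changes was not tested.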
